A study of Homo sapiens with 6 samples.

Results

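The 10 genes described here encode the main cytosolic chaperones of human cells and 1 of the mitochondria: the HSP70 proteins (HSPA8, HSPA1A, HSPA1B), the HSP110 proteins (HSPA4, HSPH1), the HSP90 proteins (HSP90AA1, HSP90AB1), their HSP40 partners (DNAJB1, DNAJA1) and the mitochondrial chaperonin (HSPD1). They were taken by gene symbol, and all 10 were found among the 21301 genes of the table. All 10 also passed the filter on low counts, which kept 19694 genes. The genes were chosen by name with their read counts in siControl and siPSF already in view, so their differences between the groups are given below as a description, with no p-value, and where the fit over all genes called them, the count is given only beside the share of all genes called. SH-SY5Y, a human neuroblastoma line that the study calls neuronal, was treated for 72 h with siControl or with siPSF, an siRNA against the RNA-binding protein PSF, both at 10 nM. Poly(A) RNA was sequenced as 3 libraries per group, which the study describes as biological triplicates. All libraries came from this single line, with no stress treatment named in the labels, and the siPSF group rests on 1 siRNA. Counts per library ran from 1743 for HSPA1A to 180044 for HSP90AB1, so counting error was small beside the spread between libraries.

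HSP70 binds exposed hydrophobic stretches of unfolded proteins and releases them through cycles of ATP hydrolysis. HSP40 proteins, which carry a J domain, deliver clients to HSP70 and stimulate its ATPase, and HSP110 proteins exchange the nucleotide so that the client is let go. HSP90 takes over clients that are close to their native fold, such as kinases and steroid receptors, and the HSP60 chaperonin folds proteins inside mitochondria. In heat or other protein stress, the heat shock factor HSF1 binds heat shock elements, which are inverted repeats of the unit nGAAn, and raises the transcription of many of these genes. Neurons depend on this machinery because they do not dilute misfolded proteins by dividing.

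The DNA before the start sites of the HSP70 genes is shown here because it carries the element by which this family is known. Whether the elements bear on the fold changes below was not tested. RefSeq sequence of GRCh38.p14 was used, in windows of 300 bases that hold 250 bases before the start site and 50 bases after it, and all 10 genes had a window. Each line below holds the 250 bases before the start site, 5′ to 3′ on the strand of the gene, at chr11:123062137-123062386 (minus strand) for HSPA8, chr6:31815293-31815542 (plus strand) for HSPA1A and chr6:31827488-31827737 (plus strand) for HSPA1B. Capitals mark the element of 3 units in HSPA8, which reads GAA, TTC and GAA with 2 bases of any kind between the units, or its reverse complement, and the shorter element of 2 units, GAANNTTC or TTCNNGAA, in HSPA1A and HSPA1B.
HSPA8: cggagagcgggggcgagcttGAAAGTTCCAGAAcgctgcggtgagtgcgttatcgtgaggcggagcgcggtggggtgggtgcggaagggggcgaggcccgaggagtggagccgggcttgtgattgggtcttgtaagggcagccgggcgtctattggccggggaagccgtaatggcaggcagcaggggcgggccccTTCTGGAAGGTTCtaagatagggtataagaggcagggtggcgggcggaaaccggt
HSPA1A: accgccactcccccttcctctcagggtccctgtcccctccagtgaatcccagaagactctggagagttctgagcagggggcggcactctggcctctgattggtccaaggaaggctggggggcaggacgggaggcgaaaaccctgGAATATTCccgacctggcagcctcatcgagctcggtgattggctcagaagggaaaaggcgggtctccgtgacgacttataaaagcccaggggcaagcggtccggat
HSPA1B: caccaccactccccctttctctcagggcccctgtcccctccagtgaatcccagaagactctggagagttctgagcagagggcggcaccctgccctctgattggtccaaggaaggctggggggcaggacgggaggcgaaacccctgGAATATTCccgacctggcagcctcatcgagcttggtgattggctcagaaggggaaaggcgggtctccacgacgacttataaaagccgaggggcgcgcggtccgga

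HSPA8 held the element of 3 units at 2 places, whose first bases lay at -230 and -55 from the start site. HSPA1A and HSPA1B held no match to the 3 units in these windows, and a match to 2 units at -106 and -105. The stretches around the matches of 4 other members are printed next, again with the match in capitals, at chr14:102087111-102087140 (minus strand), chr6:44247770-44247799 (plus strand), chr9:33025268-33025297 (plus strand) and chr2:197500061-197500090 (minus strand), in that order. HSP90AB1 held 2 matches, at -165, which is shown, and at -112, which is not. HSPD1 had overlapping matches at -245 and -240, so its capitals cover both. HSP90AA1 and HSPD1 held their matches in the window of listed start 2 and HSP90AB1 in that of start 3. The windows of their starts listed earlier held none. These windows of HSP90AA1, HSP90AB1 and HSPD1, and that of HSPA8, lie inside the gene spans given below. The DNAJA1 match began at 4, after its start site.
HSP90AA1: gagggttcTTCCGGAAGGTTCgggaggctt
HSP90AB1: ggagcaggTTCTGGAAGATTCatgggctcc
DNAJA1: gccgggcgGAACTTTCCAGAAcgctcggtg
HSPD1: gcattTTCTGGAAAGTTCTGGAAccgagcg

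Among all 35116 windows of the RefSeq table, 172 (0.49%) held the element of 3 units on either strand, and among the 27305 genes with a window, 166 (0.608%) did. Of the chaperones described here, 5 of 10 held it (HSPA8, HSP90AA1, HSP90AB1, DNAJA1 and HSPD1), in 5 of their 16 windows. The 2 units, which every match to the 3 units contains, stood in 13.5% of all windows and in 9 of the 16 windows of the chaperones. DNAJB1 had the 2 units at -77 and -47 before its middle listed start and at 2 after the last one listed, while HSPA4 and HSPH1 had neither form in theirs. A match is a string of letters in the window and does not show that a factor bound there.

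The 6 libraries held between 101540520 and 132420931 counts over all genes, and levels are given as CPM, a count relative to the library total after scaling by edgeR's TMM factors. SFPQ, which encodes PSF (chromosome 1 from 35176380 to 35193145), stood at 372, 356 and 401 CPM in siControl and at 209, 193 and 165 CPM in siPSF. Its log2 fold change was -0.99 with a standard error of 0.10 (adjusted p = 9.5e-05 by edgeR's quasi-likelihood test). All 10 neuroblastoma markers looked up were in the table, although TH, the first enzyme of catecholamine synthesis, lay under 1 CPM in every library. Of these markers TH (log2 fold change -1.20, adjusted p = 0.0245) and DBH (-0.68, adjusted p = 0.0024) were called lower in siPSF and GATA3 (0.30, adjusted p = 0.032) higher in the same test, and EPCAM, a marker of epithelial cells, was called higher (0.86, adjusted p = 0.0139). Of 10 markers of other cell types, 7 were not among the rows and the other 3 (CD68, EPCAM and DCN) summed to 4.32 to 5.74 CPM in siControl and 6.38 to 7.87 CPM in siPSF. The part of either set of markers in the values below was not tested.

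HSPA8, the HSP70 protein that cells make all the time and that also strips clathrin from vesicles, had the largest log2 fold change of the 10 genes. The gene lies on chromosome 11 from 123057489 to 123062462. It stood at 272, 278 and 248 CPM in siControl and at 557, 614 and 679 CPM in siPSF. The lowest siPSF library thus stood well above the highest siControl library. The mean went from 266 ± 15.6 CPM to 617 ± 61.1 CPM (SD, n = 3 each). This was a difference of 1.21 on the log2 scale (standard error 0.095), or 2.32-fold, and the gene ranked 223 from the top among 19694 genes ordered by log2 fold change. In bulk RNA, a change in the RNA per cell and a change in the share of cells that hold it cannot be told apart.

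HSPA1A and HSPA1B, the HSP70 genes best known for their induction by heat, lie near each other on chromosome 6, from 31815543 to 31817942 and from 31827738 to 31830254. HSPA1A stood at 14.3, 16.2 and 14.9 CPM in siControl and at 20.8, 22.1 and 27.2 CPM in siPSF. HSPA1B stood at 15.6, 17.5 and 15.3 CPM in siControl and at 22.5, 23.9 and 29.4 CPM in siPSF. The siPSF libraries lay above all siControl libraries in both genes, and replicate 3 was the highest siPSF library in each. The means went from 15.2 ± 0.975 to 23.4 ± 3.39 CPM in HSPA1A and from 16.1 ± 1.16 to 25.2 ± 3.65 CPM in HSPA1B (SD, n = 3 each), with log2 fold changes of 0.63 and 0.65 (standard error 0.12 each). These values are not independent of each other. Over the 1926 coding bases the genes differ at 4 positions (99.8% identity) and encode the same protein, and 1760 of the 1877 coding windows of 50 bases, the length of a read, occur in both. How the counting shared or dropped such reads is not given in the sources used here, so the level of each gene, and of both added, is uncertain. With the counts of both genes added, the level was 29.9, 33.7 and 30.2 CPM in siControl and 43.3, 46.0 and 56.6 CPM in siPSF, and the log2 fold change was 0.64 (standard error 0.11). No coding window of HSPA1A occurs in HSPA8, so reads of that length cannot move between those genes without a mismatch.

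**Figure D1:**
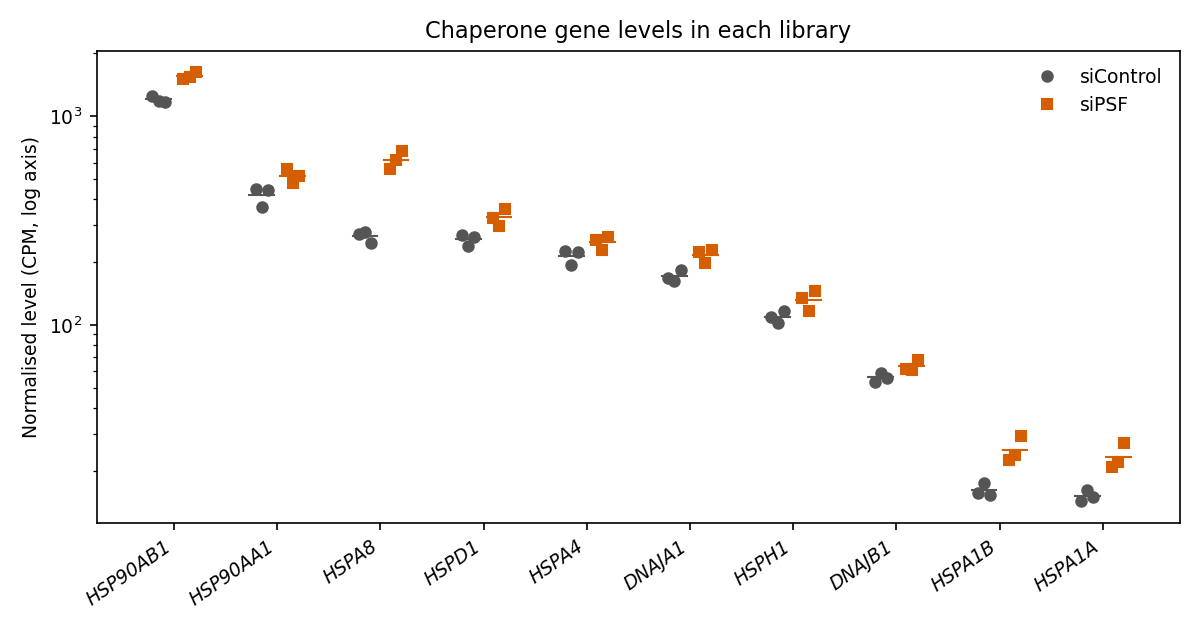
Level of each of the 10 chaperone genes in each library, in CPM after TMM scaling on a log axis, with circles for siControl, squares for siPSF and a short line at the mean of each group of 3 libraries. The squares lie above the circles of the same gene throughout, and the gap is widest for HSPA8, at 557 to 679 CPM against 248 to 278 CPM.

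The make-up of the cytosolic HSP70 pool can be read from FPKM, which divides a count by exon length and by depth and so allows levels of different genes to be compared. Over HSPA8, HSPA1A, HSPA1B, HSPA1L and HSPA2, HSPA8 made up 89.9%, 88.9% and 88.6% of the summed FPKM in siControl and 92.9%, 93.1% and 92.4% in siPSF. HSPA1A and HSPA1B together made up 9.04%, 9.88% and 9.90% in siControl and 6.62%, 6.40% and 7.06% in siPSF. So the share of the heat-inducible pair was lower in every siPSF library, although the level of both genes was higher there. How reads shared by HSPA1A and HSPA1B were counted is not given, so the size of all these shares is uncertain. As a description, HSPA8 stood at 0.246, 0.265 and 0.239 of the FPKM of HSP90AB1 in siControl and at 0.416, 0.451 and 0.473 in siPSF.

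The HSP110 genes, whose products recharge HSP70 with ATP, had, after DNAJB1, the smallest fold changes of the set. HSPA4 (chromosome 5 from 133052013 to 133106449) stood at 226, 194 and 223 CPM in siControl and at 255, 228 and 263 CPM in siPSF. HSPH1 (chromosome 13 from 31134973 to 31162388) stood at 109, 102 and 116 CPM in siControl and at 135, 117 and 145 CPM in siPSF. In both genes replicate 2 was the lowest library of its group, and the lowest siPSF library stood only just above the highest siControl library. The means went from 215 ± 17.7 to 249 ± 18.2 CPM for HSPA4 and from 109 ± 6.95 to 133 ± 13.9 CPM for HSPH1 (SD, n = 3 each), with log2 fold changes of 0.21 (standard error 0.092) and 0.28 (standard error 0.095).

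HSP90AB1, the constitutive cytosolic HSP90, was the most abundant of the 10 genes in every library (chromosome 6 from 44246194 to 44253883). It stood at 1254, 1188 and 1175 CPM in siControl and at 1516, 1544 and 1627 CPM in siPSF, with means of 1206 ± 42.0 and 1562 ± 57.6 CPM (SD, n = 3 each) and a log2 fold change of 0.37 (standard error 0.082), which was 0.18 on FPKM rescaled to an equal sum in each library. HSP90AA1, the stress-inducible HSP90 (chromosome 14 from 102080742 to 102139749), stood at 447, 366 and 445 CPM in siControl and at 560.1, 481 and 516 CPM in siPSF. Its siControl libraries spread more widely, with replicate 2 apart from the others, and the groups again did not overlap. Its means were 419 ± 46.4 and 519 ± 39.6 CPM (SD, n = 3 each), and its log2 fold change was 0.31 (standard error 0.10). Per exon length, the ratio of HSP90AB1 to HSP90AA1 was 3.65, 4.30 and 3.50 in siControl and 3.50, 4.12 and 4.10 in siPSF, so the groups overlapped in the balance of the HSP90 forms.

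The HSP40 genes differed from each other in size of change. DNAJA1 (chromosome 9 from 33025273 to 33039907), a farnesylated partner of HSPA8, stood at 167, 162 and 183 CPM in siControl and at 223, 198 and 229 CPM in siPSF. DNAJB1 (chromosome 19 from 14514769 to 14560391), the heat-inducible HSP40, stood at 53.2, 59.0 and 55.9 CPM in siControl and at 61.2, 61.1 and 67.7 CPM in siPSF. The DNAJB1 libraries of the groups nearly touched, at 59.0 and 61.1 CPM, while those of DNAJA1 were further apart. The log2 fold changes were 0.34 (standard error 0.088) for DNAJA1, with means of 171 ± 10.9 and 216 ± 16 CPM, and 0.18 (standard error 0.086) for DNAJB1, with means of 56.0 ± 2.91 and 63.3 ± 3.73 CPM (SD, n = 3 each). DNAJB1 had the smallest fold change of the 10 genes.

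HSPD1, the HSP60 chaperonin of the mitochondrial matrix (chromosome 2 from 197486584 to 197500274), stood at 270.1, 238 and 263 CPM in siControl and at 325, 298 and 359.9 CPM in siPSF. The mean went from 257 ± 16.8 to 327 ± 31.1 CPM (SD, n = 3 each), which is 0.35 higher on the log2 scale (standard error 0.093). HSPE1, the HSP10 lid of that chaperonin, is read from the opposite strand beside HSPD1 and stood at 62.1, 55.7 and 55.6 CPM in siControl and at 71.6, 66.4 and 68.2 CPM in siPSF. The siPSF libraries of HSPE1 lay above its siControl libraries, but its log2 fold change of 0.25 (standard error 0.085) did not pass edgeR's quasi-likelihood test (adjusted p = 0.067). The ratio of HSPD1 to HSPE1 in FPKM was 1.08, 1.06 and 1.17 in siControl and 1.12, 1.11 and 1.31 in siPSF, so the groups overlapped in it. HSPA9, the HSP70 of mitochondria, stood at 659, 596 and 640.1 CPM in siControl and at 635, 592 and 645 CPM in siPSF, so the groups overlapped (log2 fold change -0.018, standard error 0.084, adjusted p = 0.92, edgeR's quasi-likelihood test), and the sign turned without siControl 1 (0.013) or siPSF 2 (0.019).

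**Figure D2:**
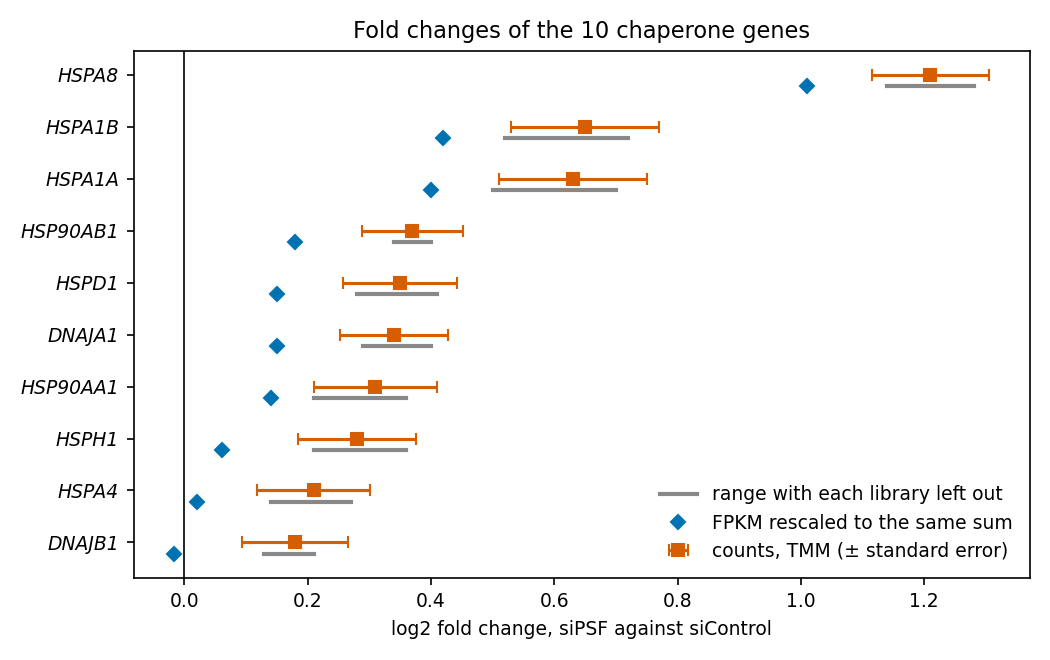
Log2 fold change of siPSF against siControl for the 10 chaperone genes, with squares and bars for the fit on counts and its standard error, grey lines for the range when each library was left out and diamonds for FPKM rescaled to an equal sum in each library. HSPA8 lies apart at 1.21 on counts and 1.01 on rescaled FPKM, and the diamonds lie to the left of the squares for all 10 genes, with DNAJB1 just under 0.

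Seen together, the 10 genes had log2 fold changes from 0.18 to 1.21 with a median of 0.34, against a median of 0.0097 over all 19694 genes. It was 0.044 over 5802 other protein-coding genes, no longer than the longest of the 10 and at least as abundant as the least abundant. In edgeR's quasi-likelihood test, 6.65% of all genes and 7.96% of those 5802 were called higher at an adjusted p under 0.05. Of the 10, 6 were called higher (HSPA8, HSPA1A, HSPA1B, HSP90AB1, DNAJA1 and HSPD1) and 4 were not (HSPA4, HSPH1, HSP90AA1 and DNAJB1). Since the 10 genes were listed with this comparison known, the count is not evidence about them. The number called also moved with the fit. It was 3 with limma on rescaled FPKM, where 429 of 14827 genes were called higher, and 8 with the replicate block, where 1389 of 19694 were. In all 10 every siPSF library lay above every siControl library, as in 16.7% of all genes and 21.3% of those 5802. In 17.8% of all genes every siPSF library lay below. The count among the 10 depends on the scale: it was 6 of 10 on FPKM as deposited, where HSPA4, HSPH1, DNAJB1 and DNAJA1 overlapped, and 4 of 10 (HSPA8, HSPA1A, HSPA1B and HSP90AB1) on FPKM rescaled to an equal sum in each library. The share of all genes was counted on CPM only, so the counts on FPKM have no background and cannot be set against 16.7%. On the rescaled FPKM the median over all genes moved to -0.16 and that of the 10 genes to 0.15, so the distance between the medians was 0.31, compared with 0.33 on counts. The sign of DNAJB1 turned there (log2 fold change -0.016), and HSPA4 (0.02) and HSPH1 (0.061) came close to 0.

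The 10 genes together took up 0.289%, 0.264% and 0.289% of all counts in siControl and 0.362%, 0.346% and 0.383% in siPSF. In the 6 fits that each omit 1 library, all 10 log2 fold changes were above 0, with HSPA8 between 1.14 and 1.28 and DNAJB1 between 0.13 and 0.21. DNAJA1 lay between 0.29 and 0.40 in these fits, and its call was lost without siControl 1, siControl 2 or siPSF 1. HSPD1 lay between 0.28 and 0.41, and its call was lost without siControl 2, siControl 3, siPSF 1 or siPSF 3. The calls on HSPA8, HSPA1A, HSPA1B and HSP90AB1 held in all 6 fits. Over all genes these fits called 572 to 1405 higher, of 19863 to 19919 tested. The fits reuse the libraries that were known when the genes were listed. Calls held or lost in them describe the fits and are not evidence about the genes. With limma on rescaled FPKM, DNAJA1, HSPD1 and HSP90AB1 were not called.

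**Figure D3:**
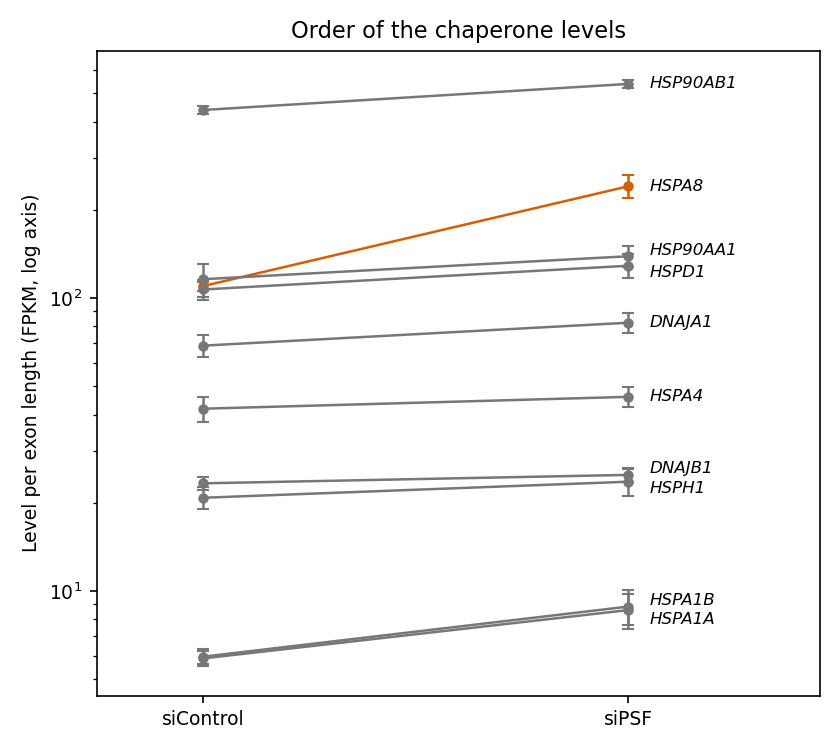
Level per exon length of the 10 chaperone genes in FPKM on a log axis, as the mean of 3 libraries per group with bars for the SD. HSPA8, drawn in orange, goes from 109.9 to 241 FPKM and leaves HSP90AA1 and HSPD1, which lie beside it in siControl.

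Ordered by FPKM, HSP90AB1 stood first in both groups (439 ± 12.7 in siControl and 539 ± 16.5 in siPSF, SD, n = 3 each). In siControl it was followed by HSP90AA1 (116 ± 14.8), HSPA8 (109.9 ± 4.04) and HSPD1 (107 ± 8.2), which did not differ beyond their spread. In siPSF HSPA8 stood second at 241 ± 22.1, apart from HSP90AA1 (139 ± 11.6) and HSPD1 (129 ± 12.1), whose libraries overlapped. The rest kept their places in both groups: DNAJA1 went from 68.8 ± 6.06 to 82.4 ± 6.38 and HSPA4 from 41.9 ± 4.01 to 46.0 ± 3.52. DNAJB1 (23.3 ± 1.26 and 24.9 ± 1.36) and HSPH1 (20.8 ± 1.80 and 23.6 ± 2.47) overlapped with each other, and HSPA1B (5.96 ± 0.350 and 8.84 ± 1.22) and HSPA1A (5.88 ± 0.356 and 8.60 ± 1.19) stood last.

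Counts on processed pseudogenes, copies of the mRNA set back into the genome, can mark reads that left their parent gene. The table held 13 rows of pseudogenes named after 5 of the 10 genes. Those of HSPD1 held the most, with 2905 counts over 4 rows and 6 libraries, or 1.43% of the counts of HSPD1, and those of the other 4 parents held at most 0.164%. HSPA8P8, with 50, 42 and 45 counts in siControl and 111, 88 and 144 counts in siPSF, moved in the direction of its parent (log2 fold change 1.57, standard error 0.28) and held 0.16% of its parent's counts. Whether these were reads of HSPA8 was not tested, so the change is no separate result and no p-value is given.

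The log2 CPM profile of HSPA8 over the 6 libraries, centred on its mean, was compared with those of 10007 protein-coding genes that had a mean of at least 10 CPM. The nearest was H2AW, a histone H2A gene, at a root mean square distance of 0.108 on the log2 scale, with 10.2, 10.6 and 8.82 CPM in siControl and 18.9, 18.7 and 24.1 CPM in siPSF. PSPC1, which encodes a paraspeckle protein that pairs with PSF, followed at 0.134, with 50.2, 39.4 and 41.4 CPM in siControl and 93.5, 92.6 and 98.7 CPM in siPSF. RPL11, a protein of the large ribosomal subunit, came next at 0.15, with 608, 591 and 513 CPM in siControl and 1027, 1066 and 1157 CPM in siPSF. These 3 genes were picked for their likeness to HSPA8, so no test of them is given.

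The other genes of protein folding were followed in 8 lists of 125 genes, of which 117 were in the table and 115 were tested. Of these, 13 were called higher and 4 lower in edgeR's quasi-likelihood test at the same threshold, where 6.65% of all genes were called higher and 8.27% lower, and the median log2 fold change of the 115 was 0.088. The lists were also written with earlier results of these data known. The counts by other tools below stand against these over all genes. DESeq2 called 1576 higher and 2046 lower of 21301 genes, of which 1652 had no adjusted p. Limma called 717 higher and 1700 lower of 14830 genes on FPKM, and 429 higher and 3073 lower of 14827 on rescaled FPKM. The share of all genes at an unadjusted p under 0.05 was not counted, so the list counts at that threshold have no background.

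Nearest in structure to the genes above, none of the 7 other HSP70 and HSP110 genes tested was called in either direction by edgeR's quasi-likelihood test, 0 had an unadjusted p under 0.05 and DESeq2 and limma called 0. Their log2 fold changes ran from -0.29 to 0.49 with a median of 0.12. HSPA6, the strictly heat-inducible HSP70, was not among the rows of the table. HSPA5 (BiP), the HSP70 of the endoplasmic reticulum, stood at 148, 156 and 156 CPM in siControl and at 157, 153 and 161 CPM in siPSF (log2 fold change 0.035, standard error 0.076, adjusted p = 0.80, edgeR's quasi-likelihood test), and the sign turned on both FPKM scales. Its libraries overlapped between the groups. Among the other HSP40 genes, 27 of 31 were tested, and 3 rose and 3 fell, with a median of 0.057. Those that rose were DNAJC21 (0.43, adjusted p = 0.024) and DNAJC2 (0.40, adjusted p = 0.027), which work with the ribosome, and DNAJC12 (0.42, adjusted p = 0.0495), a partner of aromatic amino acid hydroxylases. Those that fell were DNAJB13 (-1.74, adjusted p = 0.00085), an axonemal protein that lay under 1 CPM in every library, DNAJC6 (-0.42, adjusted p = 0.038), the auxilin that recruits HSPA8 to clathrin coats, and DNAJC17 (-0.31, adjusted p = 0.046), all by edgeR's quasi-likelihood test. Of these 6, DNAJB13 was called whichever library was left out. The call on DNAJC21 was lost without siControl 2 (0.33) or siPSF 1 (0.37) and that on DNAJC2 without siControl 2 (0.34), siControl 3 (0.41) or siPSF 1 (0.34). DNAJC12 was lost without siControl 2, siControl 3, siPSF 1 or siPSF 3 (0.29 to 0.45), DNAJC6 without siControl 2, siControl 3 or siPSF 3 (-0.49 to -0.29) and DNAJC17 without any of the 6 (-0.34 to -0.26). With no filter on low counts DNAJC12 (0.41) and DNAJC6 (-0.43) were not called. At an unadjusted p under 0.05, 6 of the other HSP40 genes rose and 5 fell, and DESeq2 called 4 higher and 3 lower. Limma called 0 higher and 2 lower on FPKM, and 0 higher and 5 lower on rescaled FPKM. So none of the 3 HSP40 genes that rose was called by limma on either scale.

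All 26 co-chaperones of HSP70 and HSP90 were tested, of which 2 rose and none fell, with a median of 0.06 (edgeR's quasi-likelihood test). At an unadjusted p under 0.05 these counts were 7 and 2, with DESeq2 3 and 0, with limma on FPKM 2 and 0 and with limma on rescaled FPKM 1 and 4. ST13 (Hip), which holds HSP70 in its client-bound state, went from 61.0, 63.8 and 69.2 CPM in siControl to 99.3, 95.6 and 113 CPM in siPSF (log2 fold change 0.67, standard error 0.092, adjusted p = 0.00065, edgeR's quasi-likelihood test). TOMM34, a co-chaperone of mitochondrial import, had a log2 fold change of 0.36 (adjusted p = 0.0097, edgeR's quasi-likelihood test), which fell to 0.17 and was not called on rescaled FPKM. BAG3, a nucleotide exchange factor that HSF1 is known to raise in stress, stood at 7.31, 7.88 and 7.15 CPM in siControl and at 7.39, 8.10 and 9.23 CPM in siPSF and did not pass the test (log2 fold change 0.15, standard error 0.12, adjusted p = 0.47, edgeR's quasi-likelihood test); on rescaled FPKM its sign turned. The list therefore held 24 genes that were not called.

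TRiC, the cytosolic chaperonin that folds actin and tubulin, and prefoldin, which feeds it, were the list with the most genes called higher among the 8. Of its 14 genes, 6 rose and none fell (edgeR's quasi-likelihood test), 13 had a log2 fold change above 0, and the median was 0.31. At an unadjusted p under 0.05 9 rose and 0 fell, DESeq2 called 6 and 0, and limma called 4 and 0 on FPKM and 1 and 0 on rescaled FPKM. CCT8 stood at 115, 104 and 111 CPM in siControl and at 158, 145 and 172 CPM in siPSF (log2 fold change 0.52, adjusted p = 0.0023, edgeR's quasi-likelihood test). PFDN4 (0.71, adjusted p = 0.0032) and PFDN5 (0.46, adjusted p = 0.0063, same test) had the next smallest p-values in the list. On rescaled FPKM the calls on CCT8 (0.33) and PFDN5 (0.26) were lost.

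**Figure D4:**
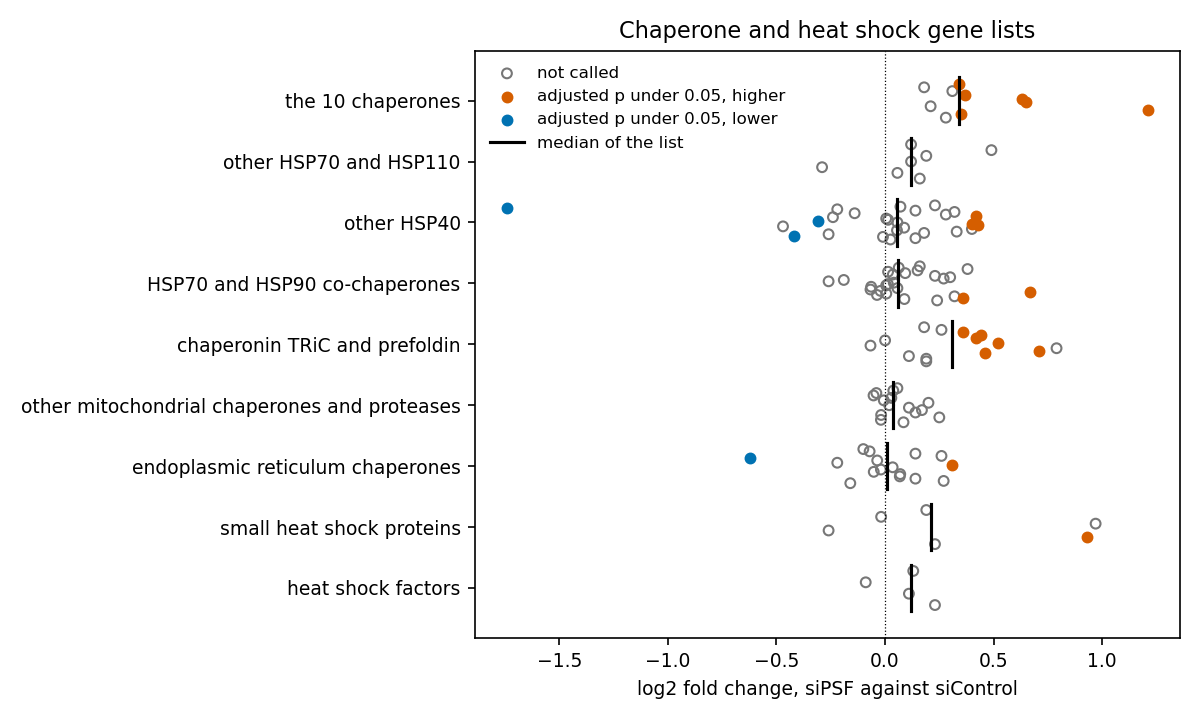
Log2 fold change of siPSF against siControl for each gene tested of the 10 chaperones and of the 8 other lists, with filled points for genes at an adjusted p under 0.05 and a vertical line at the median of each list. The medians of the 10 chaperones (0.34) and of TRiC and prefoldin (0.31) lie to the right of the others, and the genes called lower lie among the other HSP40 genes and the endoplasmic reticulum chaperones.

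None of the 15 other mitochondrial chaperones and proteases passed edgeR's quasi-likelihood test (median 0.038), HSPE1 and HSPA9 above included. Of these, 1 had an unadjusted p under 0.05, and DESeq2 and limma called 0. Of the 16 chaperones of the endoplasmic reticulum, HSP90B1 (GRP94), the HSP90 of that compartment, rose (0.31, adjusted p = 0.039) and DNAJC1 fell (-0.62, adjusted p = 0.0034, edgeR's quasi-likelihood test), with a median of 0.0084. The call on HSP90B1 was lost without siControl 1, siControl 2, siPSF 1 or siPSF 3 (0.26 to 0.30), with no filter on low counts (0.30) and on both FPKM scales (0.23 and 0.11). Of 6 small heat shock proteins tested, HSPB7 rose from 1.55, 1.48 and 1.16 CPM to 2.42, 2.78 and 2.79 CPM (0.93, adjusted p = 0.0047, edgeR's quasi-likelihood test), and the other 5 were not called. CRYAB, the small heat shock protein also known as alpha-B crystallin, was not among the rows of the table. HSF1 itself stood at 143, 141 and 118 CPM in siControl and at 126, 131 and 122 CPM in siPSF (log2 fold change -0.089, standard error 0.091, adjusted p = 0.56, edgeR's quasi-likelihood test). In the list of heat shock factors, which also holds a protein that binds them, none of the 4 genes tested was called. Of the 4, 1 had an unadjusted p under 0.05, DESeq2 called 0, and limma called 0 on FPKM and 1 lower on rescaled FPKM, which was HSF1 (-0.27).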

How the data were processed

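RNA-seq of SH-SY5Y cells with siControl or siPSF (3 libraries each) was analysed. The groups and replicate numbers were taken from the sample titles, and 0 per-sample columns were left unused. The table that the authors deposited gives, for every gene in each library, a read count and FPKM. By their methods, the authors removed rRNA reads with Bowtie 2, mapped 50 bp paired-end reads to hg38 with TopHat and counted tags on RefSeq mRNAs. The submitters' processing notes name Trimmomatic, HISAT2 2.1.0, StringTie 2.1.3b and GRCh38 instead, and which route made the deposited counts was not resolved. Whether strand was used in counting is not given in the sources used here, so genes overlapping on opposite strands may share counts. The methods describe RPKM, a count divided by exon length and mapped reads, and which route made the deposited FPKM was not resolved either. After allowing for each library's total count, FPKM per count lay within 2.09% of its median over the libraries for the 10 genes. No count in the table is under 1, so genes with 0 reads in a library are not analysed here.

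Counts were filtered with filterByExpr, scaled by TMM and fitted with edgeR's quasi-likelihood test over all 6 libraries without a block, and p-values were adjusted by Benjamini-Hochberg over the 19694 genes tested, with calls under 0.05. No pair of libraries agreed within sampling noise (chi-square per degree of freedom 20.81 or more), and the common biological coefficient of variation was 12.6%. The alternatives were DESeq2's size factors, no filter, DESeq2's Wald test (no adjusted p for 1652 genes), a replicate block, each library left out, and limma on log2(FPKM + 0.5) for genes with a mean of at least 0.5, as deposited and rescaled to the same sum per library. The counts of non-overlapping genes on FPKM were chosen after seeing the data. The fit was tested on simulated data. Versions were edgeR 4.0.16, DESeq2 1.42.0 and limma 3.58.1 under R 4.3.3, and numpy 2.4.6 and pandas 2.3.3 under Python 3.11.15.

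The members and all lists were chosen with earlier results of these data known. All 10 members, SFPQ and 5 genes (HSPE1, HSPA9, HSPA5, BAG3 and HSF1) are named whatever their values. In the other lists, at most the 3 called genes of smallest p in each direction are named. The 3 genes nearest to HSPA8 in log2 CPM are named as well, along with pseudogenes of the members. Genes named as not being among the rows, and the markers TH, DBH, GATA3, CD68, EPCAM and DCN, were chosen after their values were seen. Positions are from the RefSeq gene table of GRCh38.p14, and the HSPA1A and HSPA1B coding sequences were compared on MANE Select transcripts.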

Additional observations from a re-analysis of the deposited data

How the results depend on the processing

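The median log2 fold change of the 10 chaperones was 0.34, from 0.29 to 0.39 with 1 library left out, and 0.15 on rescaled FPKM, where the median over all genes was -0.16. The count of members without overlap was 10 on CPM, where 16.7% of all genes lay above in the same way. It was 6 on FPKM and 4 on rescaled FPKM, where the share of all genes was not counted. Over all genes, 2938 were called (1310 higher and 1628 lower). With 1 library left out there were 1500 to 3140 (572 to 1405 higher and 928 to 1735 lower), the lowest without siControl 2, and 1754 without siControl 3. Limma called 717 higher on FPKM, and 429 higher and 3073 lower on rescaled FPKM, so the split of calls depends on the scaling; the cause was not tested. Of the other chaperones, 17 were called (13 higher and 4 lower). With 1 library left out there were 8 to 17 (6 to 15 higher and 2 to 3 lower), 8 without siControl 2 and 10 without siPSF 1. Limma called 10 (7 higher) on FPKM, and 3 higher and 12 lower on rescaled FPKM. The sign turned for HSPA9 without siControl 1 (0.013) and without siPSF 2 (0.019; -0.068 to 0.019 over the libraries left out), for HSPA5 on FPKM (-0.042) and rescaled FPKM (-0.16), and for BAG3 on rescaled FPKM (-0.043). DESeq2's Wald test called 3622 genes. No pairing of the samples by replicate number was seen: same-numbered libraries deviated from their group means with correlations of -0.0222, 0.0561 and 0.0559, and not every library correlated best with its own number. With 3 libraries per group this cannot exclude a shared batch. With the replicate block, 3029 genes were called (1389 higher and 1640 lower), 20 of the other chaperones (17 higher and 3 lower), and the median of the members was 0.34. HSPE1 was called under the block (adjusted p = 0.046) and DNAJC12 and DNAJC6 were not. At this depth counting error was small, and 3 libraries per group limit the precision.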
